A study of Drosophila melanogaster with 6 samples.

Results

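The genes of the presynaptic vesicle cycle and of the active zone were followed in heads of adult Drosophila melanogaster, as a list of 32 genes named by their known roles in vesicle fusion, vesicle pools, the release site and vesicle recycling. Of these, 30 had a row under their annotation ID in a table of 15886 rows, 2 of them (syd-1, annotated as RhoGAP100F, and tomosyn, annotated as Tomosyn) through a synonym. AP-2alpha and Snap24 had no row under that ID and were not analysed here. Both stoned genes, stnA and stnB, were listed at 0 in every library, so 28 genes had values.

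Transmitter is released when a vesicle SNARE and membrane SNAREs zip together at the active zone, a protein scaffold that holds vesicles beside calcium channels. Calcium-binding synaptotagmins trigger the fusion, and clathrin, dynamin and lipid enzymes then retrieve the vesicle membrane. Nearly all neurons use this machinery, and much of it was first studied through paralytic and synaptic mutants of the fly.

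The driver in both groups was TubGS, a GeneSwitch under the tubulin promoter, which is active throughout the body once RU486 is in the food, and both groups were fed RU486. The genotype TubGS>RNAi-GLAD (RNAi-GLAD) expressed an RNA interference construct named GLAD, whose target has no other name in the labels, and TubGS>RNAi-GFP (RNAi-Ctrl) expressed one against GFP, which flies lack. Adult flies were collected on day 7 of induction, with 3 libraries per group, and their age and sex are not in the labels. The tissue is labelled as head, while the extraction is described for pools of 100 brains, and nothing says whether the pools came from separate crosses, and p-values thus reflect library-to-library spread that may be technical. No value here shows in which cells the construct acted.

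Levels are in FPKM, fragment counts scaled to gene length and library size. Library totals implied by the steps of low values were 22.02 to 29.51 M fragments. Neuronal markers were present (elav at 25.4 to 28.8 FPKM), and so were those of photoreceptors (ninaE at 25150 to 26330 FPKM) and muscle (Mhc at 194.6 to 242.3 FPKM), tissues of the head outside the brain. In bulk samples fewer cells of a type and less RNA per cell cannot be told apart. The libraries numbered 3 went against the others. Of 527 genes called in the 4 libraries numbered 1 and 2, 522 had the opposite sign when RNAi-GLAD 3 was set against RNAi-Ctrl 3, and so did 75.1% of all genes tested. Whether the labels of RNAi-Ctrl 3 and RNAi-GLAD 3 are exchanged was not tested, and fold changes, intervals and counts from 6 libraries hold only for the labels as given. Each result is therefore given for all 6 libraries as labelled and for the 4 libraries numbered 1 and 2, whose directions rest on their own labels.

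The presynaptic genes were abundant and even. Their mean levels had a median of 86.0 FPKM, where the 9631 genes with a mean of at least 1 FPKM had a median of 14.9 FPKM, and 13 of the 28 stood in the top 10% of those genes. Together they made 0.474% to 0.548% of the summed FPKM of a library. The SD of log2(FPKM + 1) over the 6 libraries had a median of 0.06 for these genes (range 0.02 to 0.15) and of 0.12 for all genes tested. For 1254 genes of similar level, between the lower and upper quartile of the presynaptic genes (43.9 to 117.8 FPKM), it was 0.10. It was 0.07 for 27 other genes of the vesicle cycle (described below), 0.06 for 5 photoreceptor markers and 0.10 for 5 neuronal markers. By the library totals and the longest annotated transcripts, the values rested on about 722 fragments for Sytbeta in its lowest library and on about 150000 for cpx in its highest. Those lengths may not be the ones the authors used, so these numbers are approximate.

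**Figure D1:**
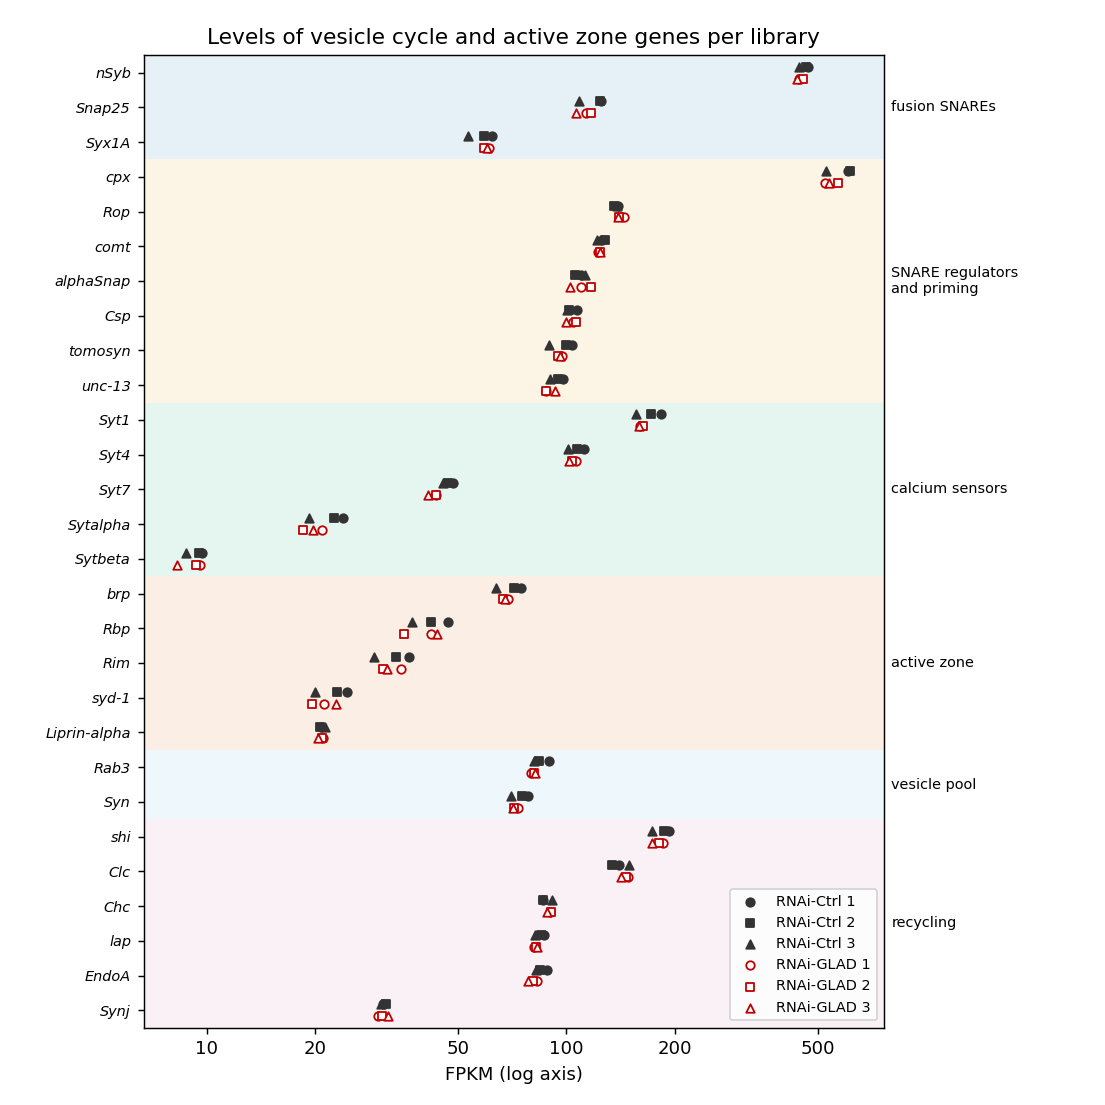
FPKM of the 28 presynaptic genes with values (log axis), by role, with RNAi-Ctrl libraries as filled and RNAi-GLAD libraries as open symbols, and the shape giving the library number. The highest values are those of cpx and nSyb and the lowest those of Sytbeta, and the 6 points of a gene lie close together, within 1.33-fold in every case.

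In the order of levels cpx came first, followed by nSyb, and neither overlapped the gene after it in any library. Of the 27 neighbouring pairs in the order, 18 overlapped in their 6 values and 9 did not. The long run from comt through Snap25, alphaSnap, Syt4, Csp, tomosyn, unc-13, Chc, lap, Rab3 and EndoA held no gap between neighbours, though genes farther apart in it did not overlap: comt lay above Syt4 in all libraries (at least 121.4 against at most 112.1 FPKM). The gaps were spread over the order, between EndoA and Syn as well as above Syt7 and above Sytbeta.

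No presynaptic gene was called in either comparison. In all 6 libraries limma called 0 of the 28, against 0 of 9631 genes tested (0%), and 0 of the 28 had an unadjusted p under 0.05, where 1.16% of all genes did. In the 4 libraries numbered 1 and 2 it called 0 of the 28, against 527 of 9661 genes (5.45%), of which 1.36% of all genes were lower and 4.10% higher in RNAi-GLAD. There 4 of the 28 had an unadjusted p under 0.05, all lower, against 24.9% of all genes in either direction and 8.77% lower. The smallest adjusted p was 0.999 with 6 libraries and 0.151, for syd-1, with 4. The log2 fold changes of FPKM + 1 (RNAi-GLAD minus RNAi-Ctrl) ran from -0.14 to 0.05 with 6 libraries and from -0.23 to 0.11 with 4.

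Most fold changes were negative and small. With 6 libraries 22 of the 28 were negative (median -0.04), where 44.3% of all genes tested were (median 0.01). With 4 libraries 22 of the 28 were again negative (median -0.07), where 45.3% of all genes were (median 0.02). The 2 comparisons share those 4 libraries. For RNAi-GLAD 3 minus RNAi-Ctrl 3, libraries that enter only the first, the median difference was 0.01, with 11 genes negative and 17 positive.

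The intervals were narrow. With 6 libraries the 95% confidence interval of each of the 28 genes lay within 0.5 of 0 on the log2 scale. So it did for 77.3% of all genes tested and for 100% of the 27 other vesicle cycle genes. The farthest bound of the 28 was the lower one of Sytalpha, at -0.36, which is a 1.29-fold difference. With 4 libraries all 28 again lay within 0.5, against 68.9% of all genes and 92.6% of the 27. The farthest bound of the 28, that of Rbp, was then -0.49, a 1.41-fold difference. These bounds hold for the groups as labelled, and a p that misses the threshold does not show that the groups were alike.

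**Figure D2:**
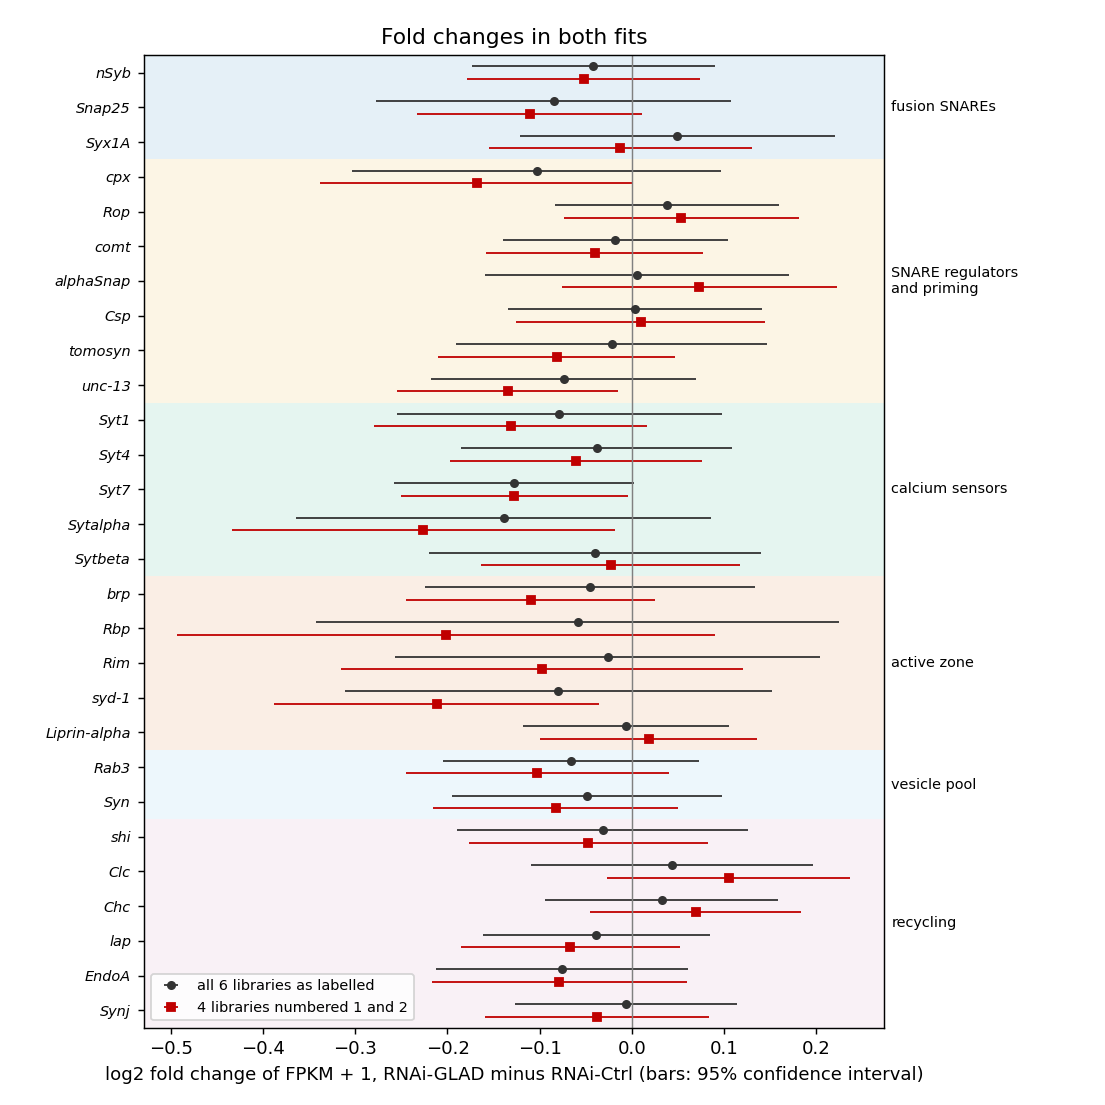
Log2 fold change of FPKM + 1, RNAi-GLAD minus RNAi-Ctrl, with limma's 95% confidence interval, for all 6 libraries (circles) and for the 4 libraries numbered 1 and 2 (squares). Every interval of the 6 libraries crosses 0, and with 4 libraries those of unc-13, Syt7, Sytalpha and syd-1 lie below 0 before adjustment.

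The SNAREs form the bundle that drives fusion. nSyb, the synaptobrevin of the vesicle (3L, 1630348 to 1637752 in BDGP6), measured 468, 462.8 and 442.2 FPKM under RNAi-Ctrl (libraries 1, 2 and 3), against 444, 453.6 and 435.8 under RNAi-GLAD (libraries 1, 2 and 3). Its highest values were in RNAi-Ctrl 1 and 2, and the groups overlapped through RNAi-Ctrl 3. Snap25, a membrane SNARE whose gene spans 225026 bp of 3L, measured 125, 124.2 and 108.6 FPKM under RNAi-Ctrl, against 113.6, 117 and 106.1 under RNAi-GLAD. Here too RNAi-Ctrl 3 lay below RNAi-GLAD 1 and 2, and the log2 fold change was -0.08 ± 0.08 (SE) with 6 libraries and -0.11 ± 0.04 with 4, neither called (adjusted p = 0.999 and 0.230, limma). Syx1A, the syntaxin of the plasma membrane, measured 62.2, 58.9 and 53.4 FPKM under RNAi-Ctrl, against 61.0, 59.0 and 60.3 under RNAi-GLAD, with RNAi-Ctrl 3 the lowest of the 6. In the annotation 10.7% of its exon bases are shared with eIF4EHP on the same strand, and how reads there were assigned is not stated.

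Levels per length can be set against each other within a library. nSyb was 7.23 to 8.28 times as high as Syx1A in FPKM, and Snap25 was 1.76 to 2.11 times as high as Syx1A. The ratio of Snap25 to Syx1A was 2.01, 2.11 and 2.04 under RNAi-Ctrl, against 1.86, 1.99 and 1.76 under RNAi-GLAD. The ratio of cpx to Syx1A was 9.78, 10.4 and 9.84 under RNAi-Ctrl, against 8.54, 9.62 and 8.87 under RNAi-GLAD. The groups overlapped in neither of these, but they did in every other ratio computed, among them that of nSyb to Syx1A. The ratios of Snap25 and of cpx both have Syx1A below the line. They were picked out of 13 ratios after the values were seen, and were not tested.

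The proteins that prepare, clamp and take apart the SNARE bundle ranged over a wider span of levels. cpx, complexin, which binds the assembled bundle and holds back fusion (3R, 4280221 to 4304604), measured 607.6, 615 and 525.4 FPKM under RNAi-Ctrl, against 521.5, 567.3 and 535 under RNAi-GLAD. RNAi-Ctrl 1 and 2 stood above the other 4 libraries, and the library labelled RNAi-Ctrl 3 lay among RNAi-GLAD. Its log2 fold change was -0.10 ± 0.08 with 6 libraries and -0.17 ± 0.06 with 4 (adjusted p = 0.204, limma), not called in either. unc-13, the priming factor that opens syntaxin (4, 867824 to 912331), measured 97.53, 94.86 and 90.05 FPKM under RNAi-Ctrl, against 87.50, 87.55 and 93.06 under RNAi-GLAD. RNAi-GLAD 3 stood above RNAi-Ctrl 3, and the log2 fold change was -0.07 ± 0.06 with 6 libraries and -0.13 ± 0.04 with 4 (adjusted p = 0.169). Antisense genes cover 25.2% of its exon bases, and whether counting used strand is not stated.

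Rop, the Sec1/Munc18 protein that binds syntaxin, measured 139.2, 135.3 and 138.5 FPKM under RNAi-Ctrl, against 144.6, 140.4 and 139.3 under RNAi-GLAD. It was higher in every RNAi-GLAD library than in any RNAi-Ctrl library, by little (0.04 ± 0.05 on the log2 scale, adjusted p = 0.999, limma). Of the 28, Rop was the 1 gene whose groups did not overlap with RNAi-GLAD higher (2.82% of all genes tested) and Syt7 the 1 with RNAi-GLAD lower (1.17%). The remaining members of this group were not called, and their groups of 3 overlapped. tomosyn, which competes for syntaxin and holds back priming, ranged from 89.6 FPKM in RNAi-Ctrl 3 to 103.5 FPKM in RNAi-Ctrl 1. comt, the NSF ATPase that takes spent SNARE bundles apart, ranged from 121.4 to 127.7 FPKM over all libraries. alphaSnap, the adaptor that loads NSF, ranged from 102.5 FPKM in RNAi-GLAD 3 to 117 FPKM in RNAi-GLAD 2. Csp, a vesicle chaperone that in mice acts on the Snap25 protein, ranged from 99.6 to 107.1 FPKM. The ratio of comt to alphaSnap stayed between 1.06 and 1.21.

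The 5 listed synaptotagmins had negative fold changes in both comparisons, and none was called. Without RNAi-GLAD 3 that of Sytbeta was 0.02 with the other 5 libraries. Syt1, the calcium sensor of fast release (2L, 2772327 to 2799979), measured 183.1, 171.8 and 156.3 FPKM under RNAi-Ctrl, against 160, 163.7 and 159.3 under RNAi-GLAD. RNAi-Ctrl 1 and 2 were the highest and RNAi-Ctrl 3 the lowest of the 6 (log2 fold change -0.08 ± 0.07 with 6 libraries and -0.13 ± 0.05 with 4, adjusted p = 0.237). Syt7, a synaptotagmin known in mammals for slow, asynchronous release (4, 278685 to 306481), measured 48.3, 46.7 and 45.3 FPKM under RNAi-Ctrl, against 43.4, 43.4 and 41.3 under RNAi-GLAD. Every RNAi-GLAD library lay below every RNAi-Ctrl library, those numbered 3 included, a mean of 46.8 ± 1.51 against 42.7 ± 1.19 FPKM (SD, n = 3 each). Its log2 fold change was -0.13 ± 0.05 with 6 libraries, with the smallest unadjusted p of the 28 in limma (0.0527, adjusted p = 0.999), and -0.13 ± 0.04 with 4 (adjusted p = 0.189). The difference between the libraries numbered 3 was also -0.13.

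Sytalpha (2L, 17592260 to 17604387) measured 23.9, 22.5 and 19.3 FPKM under RNAi-Ctrl, against 20.9, 18.6 and 19.8 under RNAi-GLAD. It had the most negative fold change of the 28 in both comparisons (-0.14 ± 0.09 with 6 libraries and -0.23 ± 0.08 with 4, adjusted p = 0.177), and RNAi-Ctrl 3 lay within the range of RNAi-GLAD. Sytbeta, the lowest of the 28, measured 9.70, 9.55 and 8.78 FPKM under RNAi-Ctrl, against 9.58, 9.34 and 8.29 under RNAi-GLAD, with both libraries numbered 3 below the other 4. Syt4, known in the fly for signalling from the postsynaptic side, ranged from 101.2 to 112.1 FPKM, lowest in RNAi-Ctrl 3 and highest in RNAi-Ctrl 1. Syt1 was 3.45 to 3.85 times as high as Syt7 and 1.5 to 1.63 times as high as Syt4 in FPKM.

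The active zone genes had the widest spread between libraries, with a median SD of 0.11 on the log2 scale, and none was called. brp, Bruchpilot, the ELKS-type protein of the T-bar on which calcium channels cluster (2R, 9503765 to 9541565), measured 74.8, 71.5 and 63.6 FPKM under RNAi-Ctrl, against 68.7, 66.7 and 67.4 under RNAi-GLAD. RNAi-Ctrl 3 was the lowest, and the log2 fold change was -0.05 ± 0.07 with 6 libraries and -0.11 ± 0.05 with 4 (adjusted p = 0.270). Rbp, the RIM-binding protein that links scaffold and channels (3R, 15374635 to 15402543), measured 47.0, 42.1 and 37.3 FPKM under RNAi-Ctrl, against 41.9, 35.4 and 43.8 under RNAi-GLAD. It had the largest range of the 28, 1.33-fold between RNAi-Ctrl 1 and RNAi-GLAD 2, and RNAi-GLAD 3 was its second highest library. syd-1, which helps to set up new active zones (3R, 31812609 to 31846570), measured 24.6, 23.1 and 20.1 FPKM under RNAi-Ctrl, against 21.2, 19.7 and 22.9 under RNAi-GLAD. It had the smallest p of the group in both comparisons (log2 fold change -0.08 ± 0.09 with 6 libraries and -0.21 ± 0.06 with 4, adjusted p = 0.151), and its difference between the libraries numbered 3 had the opposite sign, at 0.18.

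Rim, a scaffold that recruits vesicles and channels, ranged from 29.3 FPKM in RNAi-Ctrl 3 to 36.5 FPKM in RNAi-Ctrl 1. Liprin-alpha, which shares the early steps of active zone assembly with syd-1, measured 20.77, 20.70 and 21.30 FPKM under RNAi-Ctrl, against 21.02, 20.99 and 20.46 under RNAi-GLAD. It was the steadiest of the 28, with an SD of 0.02 on the log2 scale over the 6 libraries, while Rbp had 0.15. The ratio of Rbp to brp was 0.627, 0.588 and 0.586 under RNAi-Ctrl, against 0.610, 0.530 and 0.649 under RNAi-GLAD, so it varied more within RNAi-GLAD than between the group means. The ratio of Rim to brp stayed between 0.460 and 0.503.

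The vesicle pool genes were also highest in RNAi-Ctrl 1 and 2, and none was called. Rab3, the small GTPase on vesicles that Rim binds (2R, 10721335 to 10729203), measured 89.2, 84.0 and 81.3 FPKM under RNAi-Ctrl, against 79.8, 81.2 and 81.7 under RNAi-GLAD. RNAi-Ctrl 1 and 2 were the highest, and RNAi-Ctrl 3 lay among RNAi-GLAD (log2 fold change -0.07 ± 0.06 with 6 libraries and -0.10 ± 0.05 with 4, adjusted p = 0.315). Syn, synapsin, which tethers vesicles in the reserve pool, measured 78.3, 75.1 and 70.2 FPKM under RNAi-Ctrl, against 73.4, 71.3 and 71.1 under RNAi-GLAD, with RNAi-Ctrl 3 the lowest.

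Among the recycling genes the clathrin chains had positive fold changes and the other 4 genes with values negative ones, and none was called. Clc, the clathrin light chain (3L, 20241053 to 20243735), measured 139.8, 133.6 and 149.6 FPKM under RNAi-Ctrl, against 148.1, 146 and 141.4 under RNAi-GLAD. Chc, the heavy chain (X, 15827986 to 15835490), measured 85.8, 86.2 and 90.9 FPKM under RNAi-Ctrl, against 90.1, 90.4 and 88.3 under RNAi-GLAD. For both chains RNAi-Ctrl 3 was the highest library, RNAi-Ctrl 1 and 2 were the lowest, and RNAi-GLAD 3 lay between, so the groups overlapped. Clc had a log2 fold change of 0.11 ± 0.05 and Chc one of 0.07 ± 0.04 with 4 libraries (adjusted p = 0.277 and 0.389, limma), and 0.04 ± 0.06 and 0.03 ± 0.05 with 6. The ratio of Clc to Chc stayed between 1.55 and 1.65 in all libraries. Of the exon bases of Clc, 8.68% are shared with CG6951 on the same strand.

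shi, the dynamin that pinches vesicles off, measured 192.8, 186.1 and 173 FPKM under RNAi-Ctrl, against 185.4, 181.3 and 172.9 under RNAi-GLAD, with both libraries numbered 3 the lowest. EndoA, endophilin, which bends the membrane and recruits synaptojanin, measured 88.5, 84.3 and 82.3 FPKM under RNAi-Ctrl, against 83.0, 80.5 and 78.3 under RNAi-GLAD. Its fold change was nearly the same in both comparisons (-0.08 ± 0.06 with 6 libraries and -0.08 ± 0.05 with 4, adjusted p = 0.999 and 0.415, limma), and the difference between the libraries numbered 3 was -0.07. Synj, synaptojanin, the lipid phosphatase that helps to shed the coat, measured 31.01, 31.46 and 30.60 FPKM under RNAi-Ctrl, against 30.03, 30.78 and 31.87 under RNAi-GLAD. lap, the AP180 clathrin adaptor, ranged from 81.4 to 86.7 FPKM. The groups of 3 overlapped for both Synj and lap.

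stnA and stnB encode the stoned proteins of vesicle recycling, and both are read from the same transcripts. In the annotation the 2 genes have the same limits (X, 22980722 to 23004648) and 100% of the exon bases of each lie in the other. Of 270 protein-coding genes in the table that share at least 99% of their exon bases with another gene on the same strand, 211 (78.1%) were listed at 0 in all 6 libraries, while 390 of 12424 genes (3.14%) with under 1% shared were. The 0 of both stoned genes is therefore not read here as a level of their transcript, and its cause was not tested.

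In the libraries numbered 1 and 2 the groups did not overlap for 24 of the 28 genes, 19 of them lower and 5 higher in RNAi-GLAD. Of all genes tested 24.0% were lower and 32.5% higher there without overlap. The 5 higher genes were Rop, alphaSnap, Liprin-alpha, Chc and Clc. The 4 that overlapped were Syx1A, Csp, Sytbeta and Rim. With the libraries numbered 3 set beside them, 16 genes were lower in RNAi-GLAD 1 and 2 and higher in RNAi-GLAD 3, and 5 (alphaSnap, Csp, Liprin-alpha, Chc and Clc) were higher in the former and lower in the latter. Thus 21 of the 28 had opposite signs (75%), as had 75.1% of all genes. The same sign was held by 7 genes, of which nSyb, Snap25, Syt7, Sytbeta, shi and EndoA were lower and Rop was higher.

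**Figure D3:**
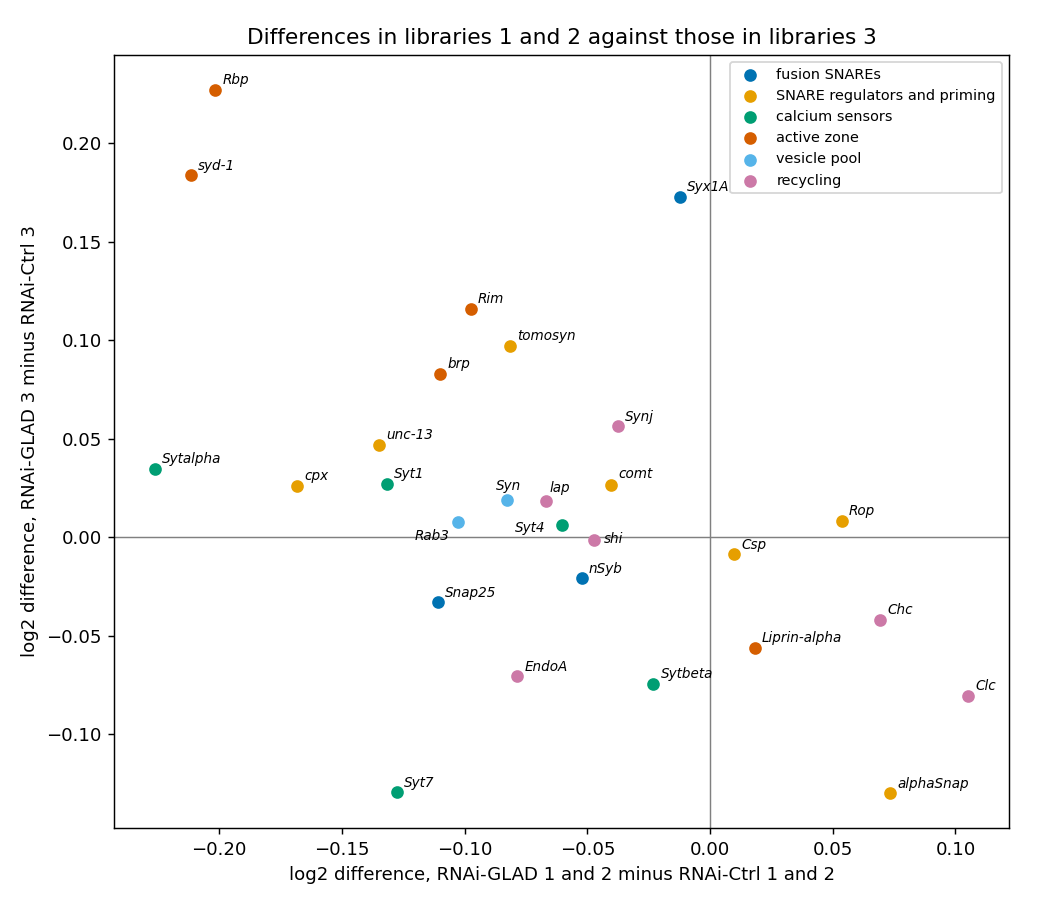
Log2 difference of FPKM + 1 between RNAi-GLAD and RNAi-Ctrl in the libraries numbered 1 and 2 (horizontal) and in those numbered 3 (vertical), 1 point per gene, coloured by role. Most points lie in the upper left or lower right, with opposite signs, with Rbp and syd-1 farthest to the upper left and Syt7 alone far down on the left.

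RNAi-Ctrl 1 held the highest value for 20 of the 28 genes, where it did so for 16.7% of all genes tested, and 24 of the 28 were above their own mean there. The median deviation of the 28 from their own means was 0.09 on the log2 scale in RNAi-Ctrl 1, 0.04 in RNAi-Ctrl 2 and -0.05 in RNAi-Ctrl 3. It was 0.01, -0.01 and -0.03 in RNAi-GLAD 1, 2 and 3. Over all genes tested it lay between -0.01 and 0.03 in each library. Without RNAi-Ctrl 1, 17 of the 28 had a negative fold change in place of 22, and the median was -0.01 in place of -0.04. Without RNAi-Ctrl 3, 23 were negative, the median was -0.08 and 3 had an unadjusted p under 0.05, with 0 called by limma. Leaving out each of the other 4 libraries gave medians between these values. The libraries labelled RNAi-Ctrl 3 and RNAi-GLAD 3 each had 5 of the 28 above their mean.

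The sum of 5 neuronal markers, most of it nrv3, moved in part with these values, as did some markers of other cell types. The 5 neuronal markers with a row (elav, nrv3, futsch, fne and Appl) summed to 735.3, 705.8 and 636.7 FPKM under RNAi-Ctrl, against 659.2, 660.7 and 637.5 under RNAi-GLAD, highest in RNAi-Ctrl 1 and 2 as for cpx and Syt1. In RNAi-Ctrl 1 nrv3 alone held 422.4 of the 735.3 FPKM, and in RNAi-GLAD 3 it held 338.8 of the 637.5 FPKM. None of the 5 was at 0, and they did not all follow the sum: elav was lowest in RNAi-GLAD 1 and futsch highest in RNAi-GLAD 3. The summed level of 4 glial markers was 316 to 344.5 FPKM in RNAi-Ctrl and 318.6 to 335 FPKM in RNAi-GLAD, and that of 5 photoreceptor markers 37010 to 37720 and 36590 to 37660 FPKM. The summed level of 3 muscle markers was 299.9 to 337.2 FPKM in RNAi-Ctrl and 294.9 to 374.6 FPKM in RNAi-GLAD, that of 5 fat body markers 654.9 to 1114 and 569.8 to 843.4 FPKM, and that of 5 testis markers 6.88 to 22.5 and 1.63 to 33.2 FPKM. The glial and photoreceptor sums were highest in RNAi-Ctrl 1 as well, and the muscle, fat body and testis sums were not. The photoreceptor sum was nearly as high in RNAi-GLAD 1 (37660 FPKM, against 37720 in RNAi-Ctrl 1). Of its markers only Arr2 was highest in RNAi-Ctrl 1. ninaE was highest in RNAi-GLAD 1 and norpA and ninaC in RNAi-Ctrl 2, while trp was highest in RNAi-GLAD 2 and lowest in RNAi-Ctrl 1. Of the glial markers, repo and nrv2 were highest in RNAi-Ctrl 1 and lowest in RNAi-Ctrl 3. The glial marker moody was highest in RNAi-GLAD 3 and alrm in RNAi-GLAD 2. RNAi-Ctrl 1 also stood apart in the yolk protein genes of the fat body list, with Yp1 at 295.6 FPKM against 0.73 to 3.28 FPKM in the other libraries and Yp2 at 98.6 against 0.37 to 2.25 FPKM. Of the testis markers, Mst84Da was at 0 in 5 libraries and dj in RNAi-GLAD 2. The part of these markers in the presynaptic values was not tested.

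Transcript length also moved with the values. Over the 28 genes Spearman's rho between the longest annotated transcript and the deviation of a library was 0.39, 0.36 and -0.44 under RNAi-Ctrl, against -0.22, -0.51 and 0.37 under RNAi-GLAD. Over 9128 tested genes with an annotated length it was 0.23, 0.07 and -0.22, and -0.21, -0.06 and 0.19, with the same sign in each library. The genes of a library share its RNA and depth, so these are descriptions. The 14 presynaptic genes with transcripts of 4638 to 12914 bp deviated by a median of 0.10 in RNAi-Ctrl 1 and -0.08 in RNAi-Ctrl 3. The 14 with transcripts of 1230 to 4164 bp deviated by 0.07 and -0.03. In RNAi-Ctrl 2 the medians were 0.04 for the long and 0.03 for the short genes. In RNAi-GLAD 1, 2 and 3 they were 0.002, -0.02 and -0.02 for the long genes, and 0.008, 0.003 and -0.05 for the short ones. Among the long ones were Rbp, syd-1 and Rim of the active zone, 3 of the 4 genes with the largest SD, while the other, Sytalpha, is short. The part of length in their differences was not tested.

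**Figure D4:**
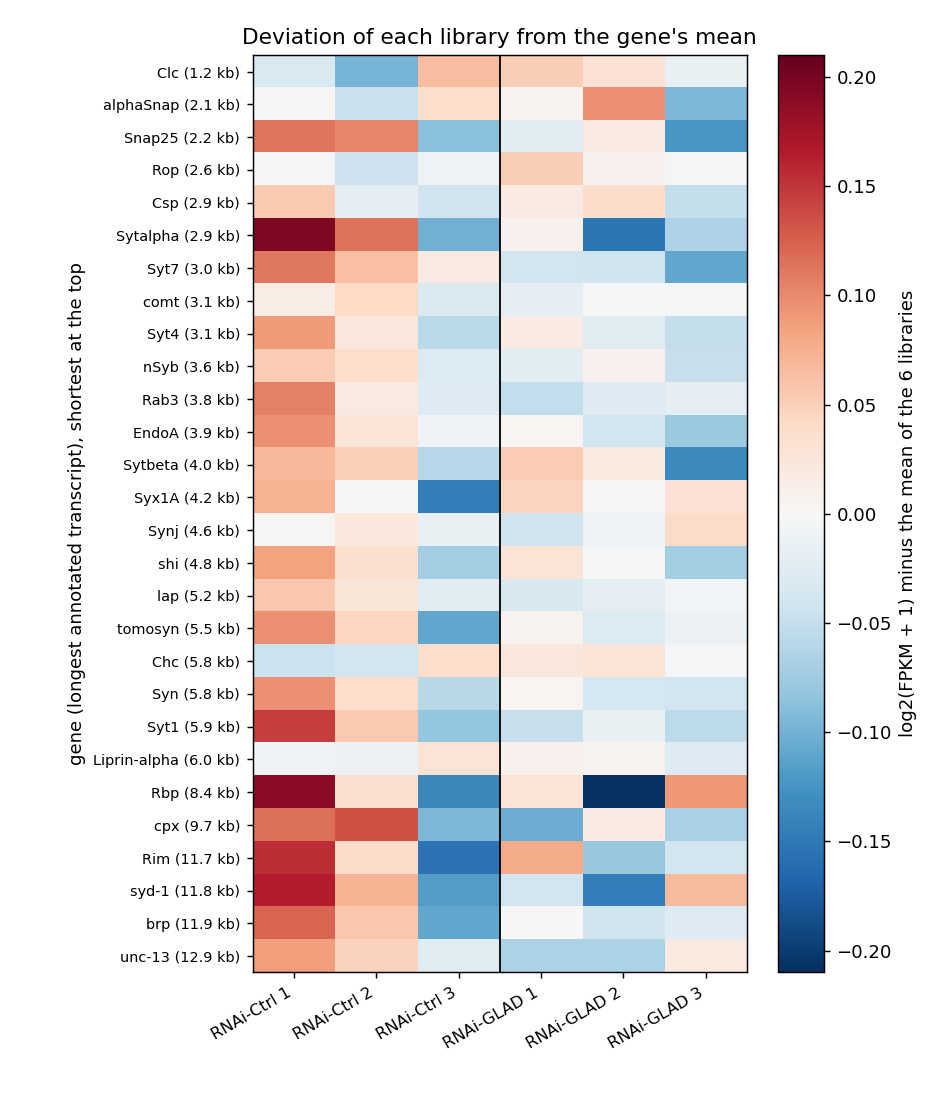
Deviation of log2(FPKM + 1) in each library from the mean of the 6, for the 28 genes ordered by the length of their longest annotated transcript. The column of RNAi-Ctrl 1 is mostly above 0 and that of RNAi-Ctrl 3 mostly below, with the strongest colours among the long genes Rbp, Rim and syd-1 and for Sytalpha, and the rows of Clc and Chc run the other way.

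The members on the small chromosome 4 were unc-13 and Syt7. Their fold changes were among the more negative ones, and the 84 tested genes of that chromosome had a median of -0.05 with 6 libraries and -0.08 with 4. Of the X-linked members with values (tomosyn, comt, shi and Chc) the median was -0.02 and -0.04. The 1497 tested X-linked genes had medians of 0.0036 and -0.02. Members on 2L had medians of -0.08 with 6 libraries and -0.13 with 4. Those on 2R had -0.05 and -0.10, those on 3R -0.05 and -0.08, and those on 3L 0.0037 and 0.0098. All tested genes of each of these arms had medians above 0 in both comparisons. The part of the chromosome in the fold changes was not tested.

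A further list of 36 genes of the vesicle cycle outside the 32 was taken by role, and 28 of them had a row, with Snapin listed at 0 in every library. Of the 27 tested, 0 were called in either comparison, against 0% of all genes tested with 6 libraries and 5.45% with 4. With 6 libraries 16 were negative (median -0.01), where 44.3% of all genes were. With 4 libraries 16 were negative (median -0.01), where 45.3% of all genes were. There 4 of the 27 (14.8%) had an unadjusted p under 0.05 in limma, against 24.9% of all genes. The smallest p with 6 libraries belonged to Cadps (log2 fold change -0.09), Rab27 (0.06), aux (0.05) and AP-2mu (-0.06). With 4 libraries Arl8, a GTPase that moves lysosomes and synaptic cargo along axons, came nearest to a call. It measured 51.4, 51.5 and 55.8 FPKM under RNAi-Ctrl, against 61.5, 62.2 and 46.6 under RNAi-GLAD, with a log2 fold change of 0.26 ± 0.04 (adjusted p = 0.0525, limma) and an opposite difference between the libraries numbered 3 (-0.25). cac, the calcium channel of the active zone, measured 33.5, 32.3 and 27.7 FPKM under RNAi-Ctrl, against 29.5, 27.5 and 32.9 under RNAi-GLAD (-0.20 ± 0.06 with 4 libraries, adjusted p = 0.133). Its order of libraries was like that of Rbp and syd-1, with RNAi-Ctrl 1 and 2 and RNAi-GLAD 3 the highest. Cadps (-0.16 ± 0.04, adjusted p = 0.134), which acts in dense-core vesicle release, and Rab11 (0.14 ± 0.04, adjusted p = 0.155), a GTPase of recycling endosomes, followed with 4 libraries.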

How the data were processed

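RNA-seq was measured in 6 libraries (3 per group, day 7). The authors deposited FPKM values per gene, with 1 column per library. Per the submitters' processing notes, reads were handled with TopHat, and dm6 and BDGP6 are the builds listed. No counting tool, strand setting or annotation is stated. Symbols, places and exon lengths came from the Ensembl release 115 annotation of BDGP6, which matched 15002 of 15682 FlyBase IDs, and synonyms from RefSeq. Library totals were the ones at which FPKM times exon length of genes with 1 transcript fell nearest to whole reads (58.4% to 70.0% of low values within 0.02 reads).

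Values were tested as log2(FPKM + 1), without further scaling, for genes with a mean of at least 1 FPKM, with limma 3.58.1 in R 4.3.3 (lmFit, eBayes with trend, two-sided, Benjamini-Hochberg over all genes tested, threshold 0.05), in all 6 libraries and in the 4 numbered 1 and 2. Fold changes on this scale understate changes of low genes. The fit was tried on simulated data with known changes. The noise was drawn separately for each gene, so that trial does not cover shifts shared by the genes of a library. Alternatives covered the pseudocount (0.1), no filter, median-of-ratios scaling, a replicate block, and libraries left out.

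The members, lists and comparisons were chosen with earlier results of these data known. All members were named. Values per library were given for the smallest p, the highest and the lowest level of each role group, and for further members (Rop, Rbp, Chc) after their values were seen. Figures were drawn with matplotlib 3.10.9.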

Additional observations from a re-analysis of the deposited data

How the results depend on the processing

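No presynaptic gene was called under any alternative run, with 6 or with 4 libraries. Over all genes the count with 6 libraries stayed at 0 except without both libraries numbered 3, where it was 527. With 4 libraries the count of 527 became 254 without a filter and 1 to 329 without each library, and 512 with the replicate block. The median fold change of the presynaptic genes without each library ranged from -0.081 to -0.012 with 6 libraries and from -0.10 to -0.049 with 4. The deviations of same-numbered libraries from their group means correlated at -0.354, -0.404 and -0.460. Libraries numbered 3 that go against the others make such correlations negative, so these cannot decide whether the libraries were paired. The fits above took them as unpaired. With the replicate block 0 genes were called with 6 libraries. With 4 libraries the block gave the 28 a smallest adjusted p of 0.0889, against 0.151 without it (limma). Leaving out 1 of the 4 libraries leaves a lone library in its group, which is assumed to vary like the other group.

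The sign of some fold changes near 0 turned, and the cause was not tested. With median-of-ratios scaling alphaSnap (-0.0089) and Csp (-0.011) turned with 6 libraries, and Csp (-0.015) and Liprin-alpha (-0.0054) with 4. Without both libraries numbered 1, tomosyn (0.011) and Synj (0.013) turned. Without both numbered 2, tomosyn (0.0044), alphaSnap (-0.063), Csp (-0.023), Rbp (0.033), Rim (0.020) and Synj (0.0060) turned. Without both numbered 3, Syx1A (-0.012) and Liprin-alpha (0.018) turned. Without each of the 6 libraries, the ranges that crossed 0 were -0.0099 to 0.098 for Syx1A, -0.082 to 0.021 for tomosyn, -0.041 to 0.054 for alphaSnap, -0.016 to 0.032 for Csp, -0.080 to 0.017 for Sytbeta, -0.11 to 0.0039 for brp, -0.14 to 0.031 for Rbp, -0.11 to 0.045 for Rim, -0.014 to 0.0060 for Liprin-alpha, -0.075 to 0.0025 for shi and -0.028 to 0.013 for Synj. Without each of the 4 libraries they were -0.050 to 0.025 for Syx1A and -0.027 to 0.046 for Csp. Sytbeta rested on about 722 fragments in its lowest library, a counting error of 3.72% for that library alone. Its difference between the group means was -2.95%, and the counting error of that difference was not computed.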
